A study of Mus musculus with 14 samples.

Results

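Gap43, its fellow growth cone substrates and the stathmins form a set of 8 genes that act where a neurite grows: Gap43, Basp1, Marcks and Marcksl1, whose proteins sit on the inner face of the plasma membrane, and Stmn1, Stmn2, Stmn3 and Stmn4, whose proteins bind tubulin. They were listed by name and matched to the deposited table by Ensembl identifier, and all 8 of the 41381 genes in the table were found. Each of the 8 was among the 17325 genes that passed the filter on low values. Gap43 and Stmn2 stand in the study's own list of genes lower in Chd7 mutant cells, which was chosen on these same libraries. Their genotype differences are therefore given as a description, and no test is read as support for them. The related genes were added with earlier results of these data known.

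The libraries were made from total RNA of granule neuron progenitors (GNPs), the dividing precursors of cerebellar granule neurons, isolated from mouse cerebellum on postnatal day 7 by centrifugation in a Percoll gradient, without regard to the sex of the pups. The 5 WT libraries carried intact Chd7 in the granule lineage and are labelled Chd7 wild type (WT 1 to 3) or Atoh1-Cre negative (WT 4 and 5), the study giving its WT animals as floxed for Chd7 without Cre. The 5 Het libraries (Atoh1-Cre::Chd7 f/+, labelled Chd7 het mutant in Het 1 and 2) had 1 floxed allele, and the 4 Hom libraries (Atoh1-Cre::Chd7 f/f, labelled Chd7 hom mutant in Hom 1 and 2) had both alleles floxed. Atoh1-Cre acts in the granule lineage, and the study considers its recombination probably less efficient in the posterior lobe, so mutant libraries may hold cells that kept Chd7. The strain is spelled C56Bl6/J in WT 1 to 3, Het 1 and 2 and Hom 1 and 2, and C57BL/6 in the rest. Chd7 encodes a chromatin remodeller.

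A growth cone is the motile tip of an extending axon, where a mesh of actin filaments meets the ends of microtubules. GAP43, BASP1, MARCKS and MARCKSL1 are attached to the membrane by fatty acids, bind acidic phospholipids and calmodulin, and are released or altered when protein kinase C phosphorylates them, which changes how actin is held beneath the membrane. Stathmins sequester tubulin dimers and promote microtubule shrinkage until kinases phosphorylate them. STMN1 is soluble and abundant in dividing as well as newly postmitotic cells, whereas STMN2, STMN3 and STMN4 are neuronal and carry an extra leading stretch that fixes them to Golgi-derived membranes.

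The libraries were sequenced in 2 batches, batch 1 (8 libraries) holding the first 3 of WT and of Het and the first 2 of Hom and batch 2 the remaining 6. Values are TPM, the share of a gene in all transcripts of a library after correction for length. They can be compared between genes per unit of length but keep no record of read depth. Chd7 itself had a TPM of 121, 152, 132, 203 and 272 in the WT libraries by number, 166, 181, 150.3, 149 and 137 in the Het libraries and 172, 185, 149.9 and 126 in the Hom libraries. It was higher in both Hom libraries of batch 1 than in every WT library of that batch, and lower in batch 2. A gene-level TPM does not separate the floxed part of Chd7 from the rest of the gene, so it does not check the deletion, and "Hom", "Het" and "WT" below mean the libraries so labelled. The study checked the deletion by other means. It reports less Chd7 transcript by quantitative RT-PCR in Het and Hom GNPs, and loss of the protein by immunostaining in granule cells of Hom mice. Between 15863 and 16734 genes had a TPM of at least 1 in a library. Markers of GNPs and granule neurons were high (summed TPM of 2805 to 3998 over 11 progenitor genes in WT), but astroglial and oligodendroglial markers were present as well (411 to 1769 over 7 genes and 754 to 1414 over 7 genes in WT).

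The coding starts of the genes are shown because they hold the features that sort the 8 proteins into classes: how, and whether, the protein is anchored to a membrane. They are taken from GENCODE vM21 transcripts, with positions on GRCm38 (mm10). In the first class the capitals mark the codons of the cysteines that are palmitoylated in GAP43 (codons 3 and 4) or of the glycine after the initiator methionine (codon 2) that is myristoylated in BASP1, MARCKS and MARCKSL1.
Gap43: atgctgTGCTGTatgagaagaaccaaacag
Basp1: atgGGAggcaagctgagcaagaagaagaag
Marcks: atgGGTgcccagttctccaagaccgcagcg
Marcksl1: atgGGCagccagagctctaaggctccccgg
These 30 bases lie in exon 1 of Gap43 (chr16:42340473-42340502, minus strand), exon 2 of Basp1 (chr15:25364880-25364909, minus strand), exon 1 of Marcks (chr10:37138506-37138535, minus strand) and exon 1 of Marcksl1 (chr4:129513830-129513859, plus strand).

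In the stathmins the capitals mark the paired cysteine codons of the membrane-bound forms, at codons 22 and 24 of Stmn2 and Stmn3 and at codons 20 and 22 of Stmn4. Stmn1 has no cysteine codon in its first 75 coding bases and is printed with no capitals.
Stmn1: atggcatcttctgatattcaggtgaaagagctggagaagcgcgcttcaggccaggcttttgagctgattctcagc
Stmn2: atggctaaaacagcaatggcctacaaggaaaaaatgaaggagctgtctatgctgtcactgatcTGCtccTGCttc
Stmn3: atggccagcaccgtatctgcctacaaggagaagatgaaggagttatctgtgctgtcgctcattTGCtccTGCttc
Stmn4: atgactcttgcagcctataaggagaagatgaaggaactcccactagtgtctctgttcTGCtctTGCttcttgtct
The Stmn1 stretch runs over exons 2 and 3 on the plus strand of chromosome 4 (chr4:134470163-134470175 and chr4:134470667-134470728). That of Stmn2 spans exons 1 and 2 on the plus strand of chromosome 3 (chr3:8509612-8509630 and chr3:8541841-8541896). That of Stmn3 spans exons 1 and 2 on the minus strand of chromosome 2 (chr2:181314194-181314212 and chr2:181309187-181309242), and that of Stmn4 exons 2 and 3 on the plus strand of chromosome 14 (chr14:66354433-66354445 and chr14:66355586-66355647).

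The Gap43 gene (ENSMUSG00000047261, chr16:42248442-42340651, minus strand) spans 92.2 kb, and those of Stmn2 (ENSMUSG00000027500, chr3:8509360-8561606, plus strand) and Basp1 (ENSMUSG00000045763, chr15:25363277-25413764, minus strand) span 52.2 and 50.5 kb. The other 5 are shorter. Stmn4 (ENSMUSG00000022044, chr14:66344296-66361680, plus strand) spans 17.4 kb and Stmn3 (ENSMUSG00000027581, chr2:181306459-181314500, minus strand) 8.04 kb. Marcks (ENSMUSG00000069662, chr10:37133375-37138920, minus strand) spans 5.55 kb, Stmn1 (ENSMUSG00000028832, chr4:134468320-134473843, plus strand) 5.52 kb and Marcksl1 (ENSMUSG00000047945, chr4:129513581-129515985, plus strand) 2.41 kb.

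The reads were single-end and 50 bases long. How far a member's reads can be told from those of other genes was therefore counted on a single annotated transcript of each member. Its 50-base windows were searched in the annotated transcripts of all other genes. Any further transcripts of the members were not checked. Only exact matches were counted, so reads that align with mismatches are not covered. None of the 50-base windows of the Gap43, Basp1, Stmn2, Stmn3 or Stmn4 transcripts occurred unchanged in a transcript of another gene. The share was 0.175% of the windows of Marcks and 1.61% of those of Marcksl1. In Stmn1, 369 of 1011 windows (36.5%) occurred in another gene. Of these, 351 were shared with the processed pseudogene Gm11223 (chr4:69925630-69926079, minus strand) and 18 with the microRNA gene Gm23634, which overlaps a Stmn1 exon on the same strand. The value of Stmn1 is therefore uncertain by what the estimation assigned to the pseudogene. Stmn1 and Stmn2 are the members with the most similar stretch of 50 coding bases, shown here with capitals at the 3 differing bases, from coding base 262 of Stmn1 and 364 of Stmn2.
Stmn1: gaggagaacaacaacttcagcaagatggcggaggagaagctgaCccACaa
Stmn2: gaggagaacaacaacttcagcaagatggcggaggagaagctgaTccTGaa

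All 8 genes were well expressed in the WT libraries, at mean TPM between 231 and 2984. Bulk values do not tell which cells of the preparation held the transcripts. Stmn1 was by far the highest, ranking 12th to 15th of all genes in each of the 14 libraries. In WT the mean levels per unit of length fell in the order Stmn1, Marcksl1, Marcks, Stmn2, Basp1, Gap43, Stmn3 and Stmn4. The ranges of Marcks and Stmn2 overlapped over the 5 WT libraries, as did those of Stmn2 and Basp1, and the other neighbours were apart. In Het libraries the ranges of Stmn3 and Gap43 overlapped and their mean order was exchanged, and in Hom libraries Gap43 lay below Stmn3 in 4 of 4 libraries, with a range that overlapped that of Stmn4. Basp1 lay above Stmn2 in 4 of 4 Hom libraries, although their ranges overlapped. Together the 8 genes made up 0.675% ± 0.01 (SD, n = 5) of all TPM in WT, 0.673% ± 0.0360 (n = 5) in Het and 0.588% ± 0.0434 (n = 4) in Hom.

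Gap43, the neuronal growth-associated protein that gives its name to the first class, was the member that differed most between the genotypes. In library order its TPM was 396, 406, 404, 402 and 395 in WT, 333, 328, 360.1, 354 and 320.0 in Het, and 213, 191, 236 and 199 in Hom. The 3 groups did not overlap: every WT library was above every Het library and every Het library above every Hom library. Non-overlap with Het below WT was found for 0.583% of all genes tested. The full order held in 12 of the 17325 genes tested, or 0.0693%, and since Gap43 was listed by the study for its fall in these libraries nothing further is read from it. The group means were 401 ± 5.0 TPM (SD, n = 5), 339 ± 17.4 (n = 5) and 210 ± 19.6 (n = 4). On the log2(TPM + 1) scale with the batch as a term in limma, the change was -0.24 (SE 0.06) in Het and -0.94 (SE 0.06) in Hom against WT, which is a difference of -15.4% and -47.8% on that scale, and -0.70 (SE 0.06) in Hom against Het. In Het against WT 0 of the 8 genes, Gap43 included, reached an adjusted p under 0.05 by limma. In bulk libraries fewer cells of a type and less RNA per cell cannot be told apart.

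Gap43 varied little among the WT libraries. Its coefficient of variation over the 5 WT libraries was 1.25%, where the median over the 1965 genes with a mean TPM of at least 100 was 10.01%. It was 5.13% in Het and 9.34% in Hom, against medians of 8.50% and 10.3%. Batch 1 and batch 2 were also fitted separately, and the difference was -0.99 (SE 0.07) in batch 1 and -0.88 (SE 0.11) in batch 2 for Hom against WT, and -0.24 (SE 0.06) and -0.24 (SE 0.11) for Het against WT. In rank order Gap43 stood between 315th and 334th of all genes in WT, between 368th and 425th in Het, and between 628th and 813th in Hom.

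Basp1, a myristoylated protein that is functionally close to GAP43 although unrelated in overall sequence, was lower in Hom by a smaller step and did not pass the test in Het. A gene is described as called where its adjusted p was under 0.05. Its TPM was 588, 586, 571, 629.7 and 556 in WT, 573, 592, 615, 563 and 526 in Het, and 491, 484, 515 and 420.2 in Hom. All 4 Hom libraries lay below every WT and every Het library, with Hom 4 the lowest, while WT and Het overlapped. Non-overlap with Hom below WT was found for 1.96% of all genes tested, and with Hom below Het for 1.06%. The means were 586 ± 27.4 TPM (SD, n = 5), 574 ± 33.5 (n = 5) and 478 ± 40.4 (n = 4). The log2 change in Hom against WT was -0.29 (SE 0.06, adjusted p = 0.0249 by limma with Benjamini-Hochberg adjustment over all genes), and in Het against WT it was -0.03 (SE 0.06, adjusted p = 0.960 by limma). Hom against Het gave -0.26 (SE 0.06), with an adjusted p of 0.128 in limma.

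The Basp1 call did not hold under every alternative. Within batch 1 the change in Hom was -0.25 (adjusted p = 0.103 by limma) and within batch 2 it was -0.35 (adjusted p = 0.274 by limma), so the direction was the same in both and neither passed the threshold. When libraries were left out singly, the call held in 9 of 14 cases (lowest adjusted p = 0.0116 by limma, without Hom 3). It was lost in the other 5, where the adjusted p by limma was 0.0507 without WT 2, 0.0607 without WT 4, 0.0671 without Hom 1, 0.0633 without Hom 2 and 0.0746 without Hom 4, with changes between -0.34 and -0.24 over all 14 omissions. The adjusted p was 0.0877 when the Het libraries were kept out of the fit.

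Marcks, the widely expressed myristoylated substrate of protein kinase C, did not pass the test in any comparison. Its TPM was 583, 625, 661, 674 and 609.6 in WT, 679, 695, 758, 663 and 586 in Het, and 592, 693, 579.7 and 543 in Hom. The 3 groups overlapped, with the highest value in Het 3 and the lowest in Hom 4. Its log2 change was -0.06 in Hom (95% interval -0.22 to 0.10, adjusted p = 0.775 by limma) and 0.10 in Het (-0.05 to 0.25, adjusted p = 0.874 by limma). Within batch 1 alone the Hom change was 0.04 and within batch 2 it was -0.19, so the sign differed between the batches.

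Marcksl1, the smaller relative of Marcks, likewise passed no genotype test. Its TPM was 852, 882, 849, 1090.0 and 1019.7 in WT, 924, 916, 952, 1086 and 923 in Het, and 849.8, 820.3, 1004 and 839.7 in Hom. The groups overlapped, and the highest values of each group, in WT 4, Het 4 and Hom 3, were from batch 2. The log2 change was -0.11 in Hom (95% interval -0.25 to 0.03, adjusted p = 0.476 by limma) and 0.04 in Het (-0.10 to 0.17, adjusted p = 0.956 by limma). Marcksl1 was the one member called for the batch, 0.18 higher in batch 2 on the log2 scale (SE 0.05, adjusted p = 0.0407 by limma), as were 13.5% of all genes tested in either direction.

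**Figure D1:**
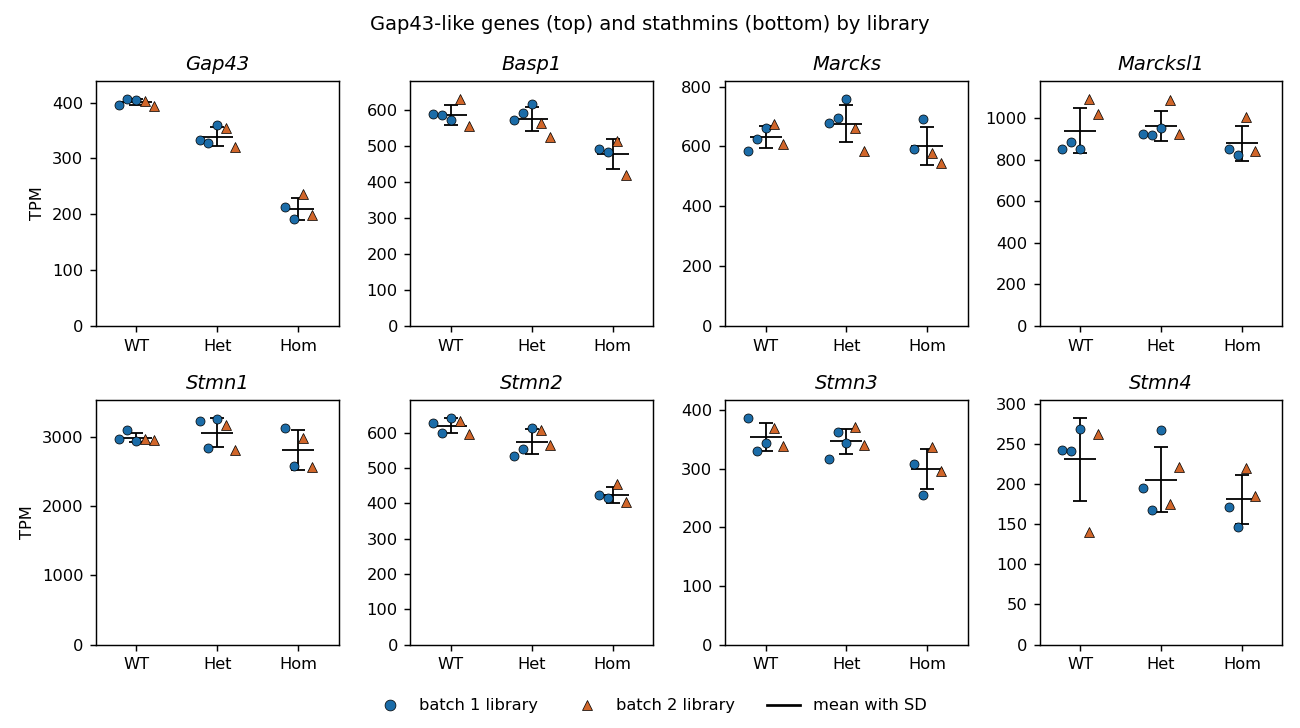
TPM (vertical axes, linear from 0) of Gap43, Basp1, Marcks and Marcksl1 in the top row and of Stmn1 to Stmn4 in the bottom row, by genotype label. Each point is 1 library (circles batch 1, triangles batch 2), and bars give the mean with the SD over 5 WT, 5 Het and 4 Hom libraries; the Gap43 groups are apart, at means of 401, 339 and 210, while those of Stmn1 overlap.

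Among the stathmins, Stmn2 (also called SCG10, a membrane-bound stathmin of growing neurites) had the largest difference in Hom. Its TPM was 628, 600.1, 642, 632 and 596 in WT, 533, 554, 613, 607 and 566 in Het, and 424, 416, 456 and 402 in Hom. Every Hom library was below every WT library, as in 1.96% of all genes tested, and below every Het library, as in 1.06%. Het overlapped WT, with Het 1, Het 2 and Het 5 below all 5 WT libraries. Means were 619.9 ± 20.6 TPM (SD, n = 5), 575 ± 34.7 (n = 5) and 424.5 ± 22.8 (n = 4). The log2 change was -0.55 (SE 0.05) in Hom (-31.6%) and -0.11 (SE 0.05) in Het against WT, and -0.44 (SE 0.05) in Hom against Het. It was -0.57 (SE 0.07) within batch 1 and -0.52 (SE 0.10) within batch 2 for Hom against WT. Like Gap43, Stmn2 was listed by the study on these libraries, and these values are a description.

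Stmn3 and Stmn4, the other membrane-bound forms, did not pass the test. The TPM of Stmn3 was 387, 330.0, 344, 369.7 and 339 in WT, 316, 363, 345, 371 and 341 in Het, and 308, 256, 338 and 296 in Hom. Hom 1, Hom 2 and Hom 4 lay below all WT and Het libraries, and Hom 3 lay among them. The log2 change of Stmn3 in Hom was -0.25 (95% interval -0.42 to -0.09, unadjusted p = 0.00500, adjusted p = 0.11 by limma), and in Het it was -0.03 (-0.18 to 0.12, adjusted p = 0.974 by limma).

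Stmn4 was the most variable member, with coefficients of variation of 22.5% in WT, 19.6% in Het and 17.0% in Hom. Its TPM was 243, 241, 268, 140.4 and 262 in WT, 195, 168, 268, 176 and 222 in Het, and 172, 146, 219.9 and 186 in Hom. WT 4, 1 of the 2 WT libraries of batch 2, was the lowest of all 14 libraries, and the groups overlapped. The log2 change in Hom was -0.32 (95% interval -0.74 to 0.09, adjusted p = 0.476 by limma), made up of -0.66 (SE 0.18) within batch 1 and 0.07 (SE 0.29) within batch 2. It ran from -0.53 to -0.20 when libraries were left out singly. The difference of the Hom effect between the batches was 0.73 (SE 0.36, unadjusted p = 0.0680, adjusted p = 0.330 by limma) and did not pass the threshold.

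Stmn1, the soluble founding stathmin, also named oncoprotein 18, did not pass the test in any comparison. Its TPM was 2970.1, 3090.5, 2942, 2968 and 2949.7 in WT, 3225, 2839, 3249, 3164 and 2811 in Het, and 3125, 2576, 2979 and 2558 in Hom. Hom 2 and Hom 4 were the lowest of all libraries, and Hom 1 was above every WT library. The log2 change was -0.09 in Hom (95% interval -0.24 to 0.06, adjusted p = 0.620 by limma) and 0.03 in Het (-0.11 to 0.18, adjusted p = 0.962 by limma). The direction in Hom depended on the scaling, being 0.06 after quantile normalization.

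The pseudogene Gm11223, which was looked at after the values of Stmn1 were seen, varied widely between libraries that share a label. Its TPM was 315, 123, 245, 31.2 and 74.4 in WT, 166, 185, 251, 3.37 and 0 in Het, and 269, 50.7, 0 and 22.1 in Hom. The values above 100 were all in batch 1. TPM is divided by length, so a sum of TPM does not return to Stmn1 the reads assigned to the shorter Gm11223. With the TPM of Gm11223 added to that of Stmn1, the means were 3142 ± 124 (SD, n = 5), 3179 ± 277 (n = 5) and 2895 ± 378 (n = 4), and the log2 changes were -0.11 in Hom (adjusted p = 0.540 by limma) and 0.01 in Het (adjusted p = 0.988 by limma).

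Of the 6 genes that are not in the study's list, 1 was called lower (Basp1) and 0 higher in Hom against WT, where 1.41% of all genes tested were called lower and 1.27% higher, and 2 were lower at an unadjusted p under 0.05 (Basp1 and Stmn3). All 6 fitted changes were below 0, with a median of -0.18 against 0.02 over all genes tested, and the share of all genes below 0 was not counted. The sign did not hold throughout: Stmn1 lay above 0 after quantile normalization, Marcks in batch 1 alone and Stmn4 in batch 2 alone. In Het against WT limma called 0 of the 6, with a median of 0.0023. Before adjustment 0 were under 0.05, where 2.88% of all genes were lower and 3.20% higher. The background there was 0.00577% of genes called in either direction, a single gene. Hom against Het shares its Hom libraries with the first comparison and its Het libraries with the second. It gave 0 called of the 6, where 0.277% of all genes were called lower. At an unadjusted p under 0.05, 3 of the 6 were lower, as were 3.13% of all genes. Gap43 and Stmn2 are left out of these counts because the study chose them on these libraries. The difference of the genotype effect between batches was called for 0 of the 8 genes by limma in both Hom and Het (0.0115% and 0.00577% of all genes), and for 0 at an unadjusted p under 0.05.

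**Figure D2:**
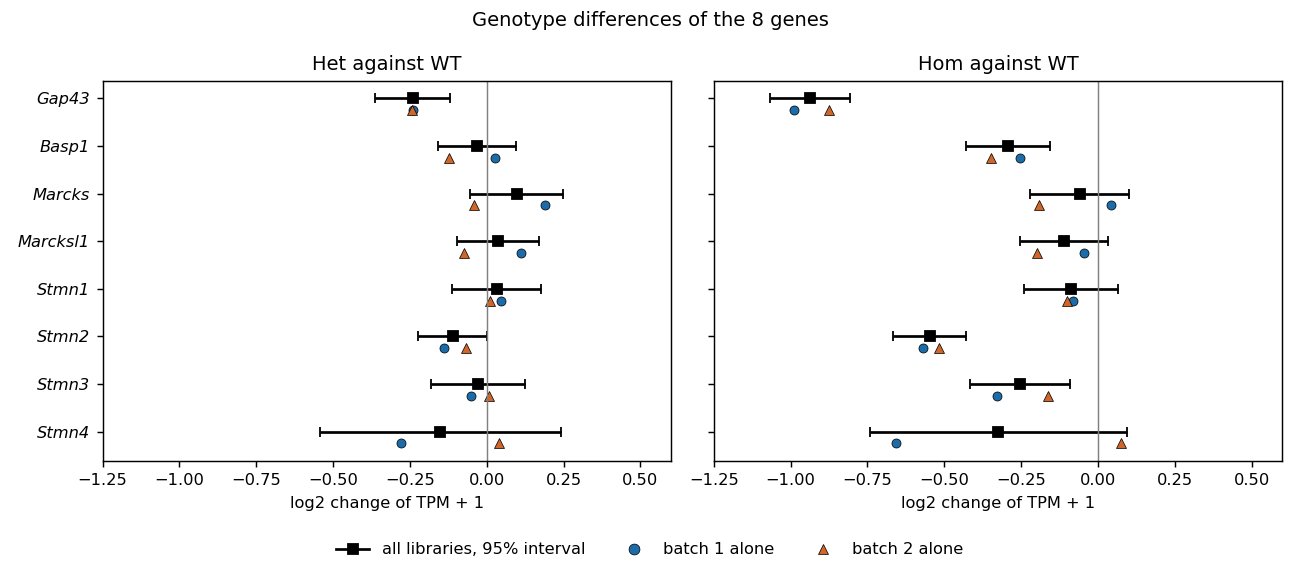
Log2 change of TPM + 1 (horizontal axes) of the 8 genes in Het against WT (left) and Hom against WT (right), which share the WT libraries. Squares with bars give the limma estimate from 14 libraries with its 95% interval, and circles and triangles the estimates from batch 1 and batch 2 alone; in Hom, Gap43 lies at -0.94, Stmn2 at -0.55 and Basp1 at -0.29, and Stmn4 differs most between the batches.

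Ratios of members within a library do not depend on its total. The ratio of Gap43 to Basp1 was 0.639 to 0.709 in WT, 0.554 to 0.629 in Het and 0.395 to 0.473 in Hom, so the groups did not overlap. The ratio of Gap43 to Stmn1 averaged 0.134 ± 0.00224 (SD, n = 5) in WT, 0.111 ± 0.00471 (n = 5) in Het and 0.0748 ± 0.00492 (n = 4) in Hom, again without overlap. The ratio of Gap43 to Stmn2 was 0.647 ± 0.0214 in WT, 0.591 ± 0.0216 in Het and 0.493 ± 0.0241 in Hom, so that of the 2 genes Gap43 differed by more. Of the stathmins, Stmn1 held 71.2% ± 1.10 (SD, n = 5) of their summed TPM in WT, 73.0% ± 1.57 (n = 5) in Het and 75.6% ± 1.48 (n = 4) in Hom, and Stmn2 held 14.8% ± 0.569, 13.7% ± 0.744 and 11.5% ± 0.717. Within the first class the share of Gap43 in the summed TPM was 15.7% ± 0.855 in WT, 13.3% ± 0.233 in Het and 9.67% ± 0.630 in Hom. These ratios contain Gap43 or Stmn2 and are a description.

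**Figure D3:**
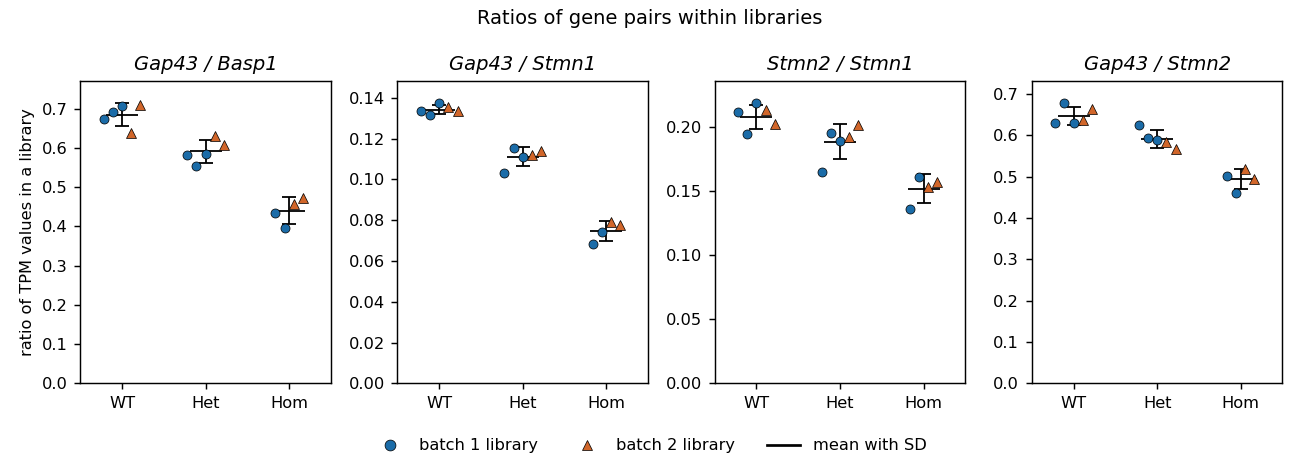
Ratios of the TPM of 2 genes within the same library (vertical axes, linear from 0), by genotype label, with circles for batch 1, triangles for batch 2 and bars for the mean with the SD over 5 WT, 5 Het and 4 Hom libraries. The ratio of Gap43 to Basp1 averages 0.684, 0.592 and 0.440, and the ratio of Gap43 to Stmn1 averages 0.134, 0.111 and 0.0748.

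Other genes of the growth cone were taken as a list of 25 actin, microtubule and membrane genes, all of which passed the filter. In Hom against WT 3 were called lower, 1 higher and 21 not, where 2.68% of all genes were called in either direction. The count holds Gprin3, which the study chose on these libraries, so only Dbn1, Cfl1 and Dpysl4 are set against that share. The median change of the list was -0.05 against 0.02 over all genes. Gprin3, a G protein-regulated inducer of neurite outgrowth, was lower (19.7 ± 1.61 TPM in WT, n = 5, and 8.05 ± 1.65 in Hom, n = 4; log2 change -1.19, SE 0.11), and it too is in the study's list from these libraries. Dbn1, which encodes the actin-bundling protein drebrin, was lower by a small step (394 ± 48.5 and 331 ± 47.1 TPM; log2 change -0.28, SE 0.06, adjusted p = 0.0290 by limma). Cfl1, the actin-severing cofilin, was also lower (1783 ± 124 and 1559.7 ± 42.0 TPM; log2 change -0.20, SE 0.05, adjusted p = 0.0390 by limma).

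Dpysl4, of the collapsin response mediator family that links semaphorin signals to microtubules, was the gene of the list called higher (98.2 ± 24.7 TPM in WT, n = 5, and 151 ± 6.07 in Hom, n = 4; log2 change 0.61, SE 0.10, adjusted p = 0.00497 by limma). Its change was 0.87 (adjusted p = 0.00993 by limma) within batch 1 and 0.30 (adjusted p = 0.251 by limma) within batch 2, a difference of -0.57 (unadjusted p = 0.00107, adjusted p = 0.127 by limma). Its relative Dpysl2 had a change of -0.32 (SE 0.09) and did not pass (adjusted p = 0.104 by limma). In Het against WT limma called 0 of the 25. Before adjustment 2 were below and 1 above WT at p under 0.05, as were 2.88% and 3.20% of all genes. These calls moved with the processing: between 0 and 6 genes of the list were called under the alternatives, 2 being called without WT 2, WT 4, Hom 1 or Hom 4, and of 26 refits the call was lost in 20 for Cfl1 and 11 for Dbn1.

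The kinases, phosphatases and calmodulins that act on these proteins gave 3 called lower and 0 higher, where 1.41% of all genes were called lower. Of the 22 genes 20 passed the filter, and 17 were not called. The 3 include Pcp4, which the study chose on these libraries, so only Calm2 and Ppp3ca are set against that share. The median change of the 20 was -0.07. Before adjustment 5 of the 20, Pcp4 among them, were below WT at p under 0.05, as were 6.42% of all genes. Calm2, 1 of the calmodulin genes, was at 1705 ± 234 TPM in WT and 1389 ± 142 in Hom (log2 change -0.26, SE 0.05, adjusted p = 0.0183 by limma). Ppp3ca, the catalytic subunit of calcineurin, was at 164 ± 18.1 and 119.7 ± 15.1 TPM (log2 change -0.45, SE 0.10, adjusted p = 0.0262 by limma). Pak1, a kinase that phosphorylates stathmin, had a change of -0.27 (SE 0.07) and did not pass (adjusted p = 0.0704 by limma).

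Pcp4, a calmodulin-binding peptide of the GAP43 type that is abundant in Purkinje cells, was lower by the most in the list (61.1 ± 33.8 TPM in WT, n = 5, and 14.2 ± 1.35 in Hom, n = 4; log2 change -1.73, SE 0.31), and it is in the study's list as well. Its TPM in WT was 85.8, 94.0, 76.2, 26.6 and 22.8, high in the batch 1 libraries, and its Hom change was -2.41 (SE 0.31) in batch 1 and -0.84 (SE 0.17) in batch 2, a difference of 1.57 (SE 0.41). In Het against WT limma called 0 of the 20. Before adjustment 2 were below WT at p under 0.05, as were 2.88% of all genes. The calls of Calm2 and Ppp3ca were lost in 12 and 10 of 26 refits. The count of 3 in Hom became 1 without WT 3, Hom 1 or Hom 4 and 0 within batch 2. In each of these single omissions Calm2 and Ppp3ca both lost the call, and the gene left was Pcp4. Summed Purkinje markers ranged over 15.01 to 98.8 TPM in WT, 16.5 to 50.5 in Het and 18.9 to 34.6 in Hom (7 genes, of which 5 passed the filter), with the highest values in WT 1 to 3, and their part in the fall of Pcp4 was not tested.

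**Figure D4:**
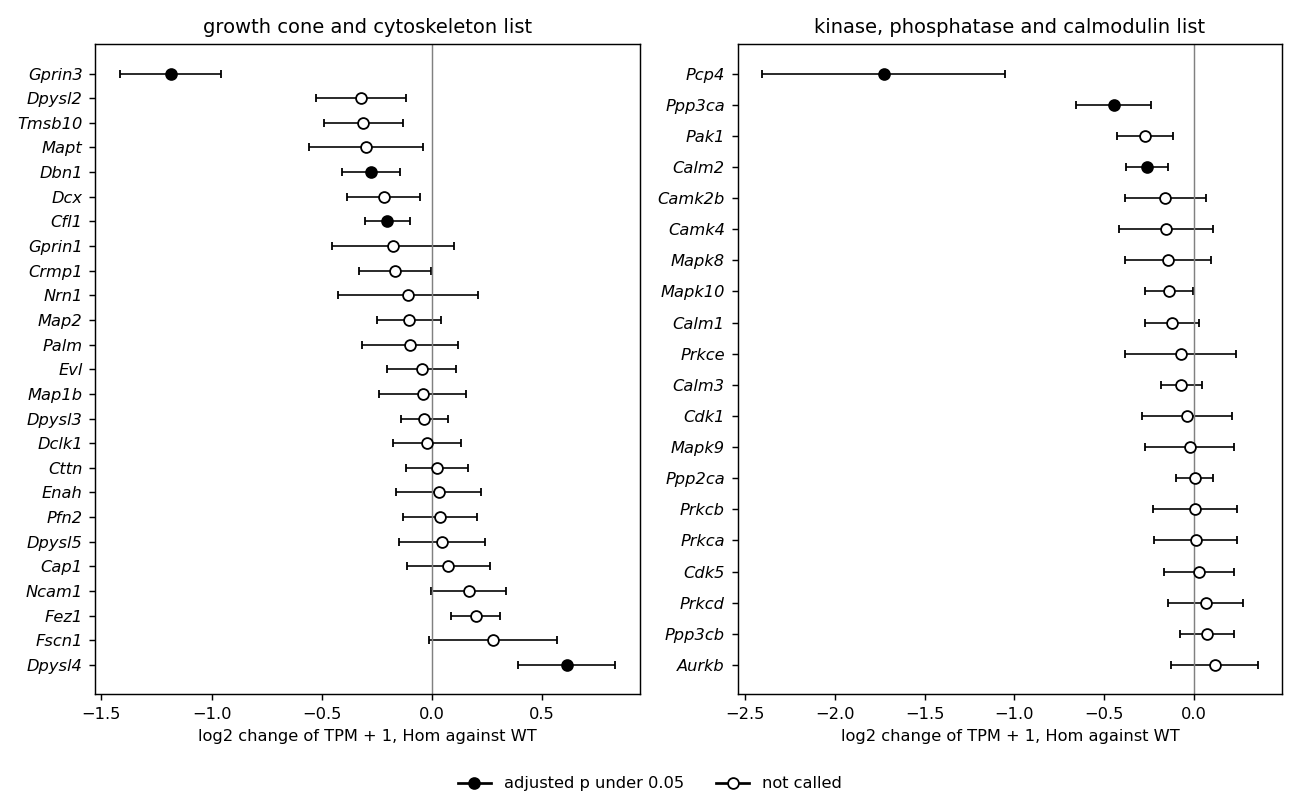
Log2 change of TPM + 1 in Hom against WT (horizontal axes) of 25 growth cone and cytoskeleton genes (left) and 20 kinase, phosphatase and calmodulin genes (right), with 95% intervals from limma over 14 libraries. Filled points have an adjusted p under 0.05; Gprin3 at -1.19 and Pcp4 at -1.73 lie farthest below 0, and Dpysl4 at 0.61 is the filled point above it.

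Granule neuron markers had summed TPM of 2261 to 2866 in WT, 2410 to 2605 in Het and 1873 to 2344 in Hom. Of the 9 genes of that list that passed the filter 4 were called lower in Hom (Tubb3, Neurod1, Cbln1 and Slc17a7), with a median change of -0.38, where 1.41% of all genes were called lower. Cbln1 and Neurod1 had already been singled out by the study, so only Tubb3 and Slc17a7 are set against that share. In Het against WT limma called 0 of the 9, and 1 was lower at an unadjusted p under 0.05, as were 2.88% of all genes. Of 11 progenitor markers 1 was called higher in Hom (Ccnd1, log2 change 0.80) and 0 lower, where 1.27% of all genes were called higher, and their summed TPM overlapped between the groups, at 2805 to 3998 in WT, 3161 to 3474 in Het and 3138 to 3601 in Hom. Their part in the values of Gap43, Stmn2 and Basp1 was not tested.

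Endothelial markers summed to 23.6 to 199 TPM in WT, 19.5 to 431 in Het and 106 to 324 in Hom. Their 6 changes in Hom were all above 0 (median 1.56), with 0 called by limma and 5 at an unadjusted p under 0.05, where 8.51% of all genes were higher at that p. Astroglial markers summed to 411 to 1769, 548 to 1101 and 311 to 649 TPM, with 5 of 7 lower at an unadjusted p under 0.05 in Hom, where 6.42% of all genes were, and 0 called by limma. No marker of these lists was at 0 in all libraries of a group. The part of these cells in the values of the 8 genes was not tested.

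Across the 14 libraries, with the batch term removed, the gene most like Gap43 among the 12199 genes with a mean TPM of at least 5 was Stmn2 (Pearson r = 0.98, Spearman rho = 0.91, a description over libraries that share the genotype labels). After Stmn2 came Slitrk5, a transmembrane protein of neurites (r = 0.98, 26.8 TPM in WT and 14.9 in Hom), and Sept4, a septin (r = 0.97, 259 and 101 TPM). Serinc2 (r = 0.96, 45.0 and 29.3 TPM) and Kcnj3, an inwardly rectifying potassium channel subunit (r = 0.96, 69.1 and 37.6 TPM), completed the first 5, and these 4 genes are in the study's list as well. With the mean of each genotype and batch also removed, r between Gap43 and Stmn2 was 0.74, and r between Gap43 and Stmn1 was 0.82.

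Basp1 was most like Cplx1, a complexin of synaptic release (r = 0.97), Nkain1 (r = 0.97) and Tubb3, the neuronal beta-tubulin (r = 0.94). Stmn2 was most like Gap43, Slitrk5 (r = 0.96) and the autophagy receptor gene Optn (r = 0.96). Tubb3 was also the gene most like Stmn3 (r = 0.92), ahead of Arf5 and Ap2m1. The genes most like the other 4 members had r between 0.85 and 0.93, led by Inafm2 for Marcks, Ubtf for Marcksl1, Bcl7a for Stmn1 and Cog7 for Stmn4. Marcks stood apart from Gap43 within the set (r = 0.33), and Basp1 was nearer to it (r = 0.89).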

How the data were processed

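The authors sequenced total RNA of 14 libraries (single-end 50-base reads, Illumina), aligned them with Bowtie 1.0.0 to mouse Ensembl transcripts (mm10) and quantified genes with RSEM 1.2.15, leaving both at their defaults, versions being those in the submitters' processing notes. The deposited table holds TPM values for 41381 genes, and each column summed to 1000000 within rounding, so the values were taken as not corrected for batch. TPM keeps no depth, so the depth of each library is unknown and no counting error was computed. A column named "Con" with a number was read as the WT library with that number. GENCODE vM21 gave symbols for 40254 identifiers, positions, transcripts and the coding starts.

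Values were analysed as log2(TPM + 1), which understates the change of low genes, for genes reaching 1 TPM in 4 or more libraries. Limma 3.58.1 under R 4.3.3, with a trended eBayes step, was fitted to all 14 libraries with genotype and sequencing batch as terms, with two-sided p-values adjusted by the Benjamini-Hochberg method over 17325 genes, and a gene was called at an adjusted p under 0.05. The study corrected batches with ComBat, which was not run, and applied a Kruskal-Wallis test. An exact Kruskal-Wallis test after removal of the batch term was an alternative here. Batches followed the study's methods. Those methods put Het 3 in batch 1 although its labels read like those of the later libraries; 80.8% of 1928 batch genes put it nearer the Het libraries of batch 1. Nothing states that the libraries of a group came from separate animals, so p-values measure the spread between these libraries.

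The members, gene lists and tests were chosen with earlier results of these data known. The genes named are the 8 members, every gene called in the 2 pathway lists and the 3 with the largest Hom change in each, the genes most like each member (5 for Gap43, 3 for each other member) and Chd7. The cell type markers called in Hom are also named, and the pseudogene Gm11223 was chosen after its values were seen. Alternatives were other pseudocounts, filters, scalings and batch treatments, each batch alone, a replicate block and the omission of each library. The limma step was tested on simulated data with known changes, for Hom against WT. It recovered 69% of changes of 1 on the log2 scale and 38% of the smaller ones, and 3.6% of its calls were false. A gene that was not called may therefore still have changed.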

Additional observations from a re-analysis of the deposited data

Results flagged for a closer look

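Among the 8 members and 10 further named genes, 5 libraries stood apart from the others of their group by Dixon's criterion on log2 values, out of 54 groups of 4 or 5 libraries looked at. Chance alone gives such a library in about 1 in 20 groups, or 2.7 here. WT 4 was low for Stmn4, at 140.4 TPM where the other WT libraries were at 241 to 268. WT 2 was high for Stmn1, at 3090.5 TPM against 2942 to 2970.1, and Het 4 was high for Marcksl1, at 1086 TPM against 916 to 952. Outside the set, Het 4 was high for Cfl1 at 1914 TPM, and Hom 2 was high for Ppp3ca at 142 TPM. No difference of a genotype effect between batches was called by limma for any of the 8 genes.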

How the results depend on the processing

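The 42 results were refitted 1082 times, and 976 refits kept the direction and the side of the threshold, or a count within 1.5 times. Another 71 lost the call, 4 gained it, 11 changed sign and 20 counts moved. Gap43 and Stmn2 kept their direction in Hom under every alternative, at -0.99 to -0.88 and -0.58 to -0.52. Stmn1 was also refitted with the pseudogene's TPM added, an alternative chosen after seeing the data, with no change of call. That sum weighs reads of the shorter pseudogene more, so it does not settle the value of Stmn1. Counts of members here include Gap43 and Stmn2, which the study chose on these libraries. With batch 2 alone, 0 members were called in Hom against WT and 0 in Hom against Het, where batch 1 alone gave 1, and each batch alone leaves fewer libraries.

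Members called in Hom against WT numbered 2 to 3 when single libraries were left out. The exact Kruskal-Wallis test, which is over the 3 genotypes and not between Hom and WT, gave 3 members under 0.01, of which the study had chosen Gap43 and Stmn2 with a test of that kind. The growth cone count in Hom, 4 in the report, was 2 with no batch term, with Het 3 moved to batch 2, with only 2 genotypes in the fit and in batch 1 alone, 0 in batch 2 alone, and 2 to 4 when single libraries were left out. The regulator count in Hom, 3 in the report, was 1 with only 2 genotypes and in batch 1 alone, 0 in batch 2 alone, and 1 to 3 when single libraries were left out. The growth cone and regulator counts include Gprin3 and Pcp4, which the study chose on these libraries. The cause of these shifts was not tested.

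All changes of sign were in values that were not called. In Het against WT, Basp1 became 0.0281 in batch 1 alone and 0.00781 without WT 4, and ran from -0.0532 to 0.00781 over single omissions. Batch 2 alone turned Marcks to -0.0399, Marcksl1 to -0.0742, Stmn3 to 0.00754 and Stmn4 to 0.0390, and Stmn3 became 0.0152 without WT 1, with a range of -0.0580 to 0.0152 over single omissions. In Hom against WT, Marcks became 0.0418 in batch 1 alone, Stmn4 0.0742 in batch 2 alone and Stmn1 0.0624 after quantile normalization, and in Hom against Het Stmn4 became 0.0352 in batch 2 alone.

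Whether replicate numbers pair the libraries was not settled, because pairs with different numbers were not compared. Over 13 pairs with the same number, r of the deviations left by the genotype and batch terms ran from -0.23 to 0.26. It was above 0.1 in 3. With the replicate number as a block, 3 members were called in Hom against WT, 0 in Het against WT and 2 in Hom against Het. These counts include Gap43 and Stmn2, which the study chose on these libraries, and are no support for them. Under that block the growth cone list had 2 called and the regulators 0 in Hom against WT, and Dpysl4 (adjusted p = 0.0646 by limma), Pcp4, Cfl1, Calm2 and Ppp3ca were no longer called.

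The depth of the libraries is unknown, so no limit from depth can be given.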
